A study of Homo sapiens with 36 samples.

Results

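The D cyclins, the inhibitors of the kinases they activate, and the retinoblastoma gene RB1 were followed across 3 human breast cancer cell lines after DUSP4 knockdown and after MEK inhibition. The 10 genes named for this set were CCND1, CCND2, CCND3, CDKN1A, CDKN1B, CDKN1C, CDKN2A, CDKN2B, CDKN2C and RB1, chosen by symbol among array probes annotated to a single gene. Of these, 9 had such a probe among 17958 genes, and CDKN2C, which encodes another inhibitor of the CDK4 and CDK6 kinases, was not measured here. Where a gene had several probes, the one with the highest mean over the 36 arrays was used. Levels are log2 signals on the deposited scale, so a difference of 1 is a 2-fold difference, and levels of different genes were not set against each other.

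The lines were MDA231, SUM159PT and BT549, each with 4 groups of 3 arrays labelled A, B and C. The siDUSP4 cells received 10 nM siRNA against DUSP4, which encodes a phosphatase that inactivates MAP kinases, and DMSO. The selumetinib cells received 10 nM non-targeting siRNA and 1 uM selumetinib (AZD6244), a drug that blocks the MEK kinases, during the final 4 h or 24 h. The siCONTROL cells received 10 nM non-targeting siRNA and DMSO, and were the controls of all 3 treatments in their line. All cells were harvested 96 h after transfection, and the labels name 1 DUSP4 siRNA treatment, so its effects apart from DUSP4 loss cannot be told apart from those of DUSP4 loss. MDA231 was cultured in DMEM, SUM159PT in DMEM/F12 with hydrocortisone and BT549 in RPMI, so line and medium cannot be told apart. For 24 arrays the labels conflict: the title and the cell line field give SUM159PT where the source name and description give BT549, or the reverse, and the title was followed. Nothing in the labels ties the letters A, B and C to separate cultures. The p-values thus reflect only variation among these arrays, part or all of which may be technical.

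Cyclins D1, D2 and D3 bind CDK4 and CDK6, and the active kinases phosphorylate RB, which then releases E2F transcription factors that drive entry into S phase. CDKN1A, CDKN1B and CDKN1C encode the CIP/KIP inhibitors p21, p27 and p57, which bind complexes of cyclins with their kinases. CDKN2A and CDKN2B encode the INK4 inhibitors p16 and p15, which bind CDK4 and CDK6 alone, and CDKN2A also encodes ARF from another first exon. CCND1 is a well-known target of ERK signalling, the pathway that MEK inhibitors block and that DUSP4 acts on.

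The promoter sequences below belong to the inhibitor genes whose levels separated the lines or changed with treatment: the neighbouring genes CDKN2A and CDKN2B, and CDKN1A and CDKN1B. They are RefSeq sequences of the GRCh38.p14 build, 300 bases each, on the gene's own strand. Of the 9 measured genes, 6 had an entry. Capitals mark motif letters searched on both strands: the SP1 box GGGCGG, the CRE core TGACG, the AP-1 site TGANTCA, the ETS site CCGGAA and the E2F site GCGGGAA.

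CDKN2A, chr9:21995275-21995574, minus strand: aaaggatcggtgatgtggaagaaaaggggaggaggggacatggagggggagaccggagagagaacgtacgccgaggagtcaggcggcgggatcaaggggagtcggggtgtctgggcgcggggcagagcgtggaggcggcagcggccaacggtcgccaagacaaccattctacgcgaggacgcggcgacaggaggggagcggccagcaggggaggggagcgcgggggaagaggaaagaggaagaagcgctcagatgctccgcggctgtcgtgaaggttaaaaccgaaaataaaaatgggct

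CDKN2A, chr9:21974808-21975107, minus strand: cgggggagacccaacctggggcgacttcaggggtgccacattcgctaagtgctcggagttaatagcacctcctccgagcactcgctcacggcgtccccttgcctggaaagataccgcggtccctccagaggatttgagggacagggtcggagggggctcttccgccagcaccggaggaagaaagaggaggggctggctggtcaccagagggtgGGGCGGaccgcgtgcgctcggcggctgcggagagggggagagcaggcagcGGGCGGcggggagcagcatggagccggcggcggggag

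CDKN2B, chr9:22009256-22009555, minus strand: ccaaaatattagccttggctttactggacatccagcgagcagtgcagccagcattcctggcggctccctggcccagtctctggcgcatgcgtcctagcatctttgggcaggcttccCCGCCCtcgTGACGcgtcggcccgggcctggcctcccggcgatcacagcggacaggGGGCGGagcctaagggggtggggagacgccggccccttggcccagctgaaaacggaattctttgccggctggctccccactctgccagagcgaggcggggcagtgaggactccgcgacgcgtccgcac

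CDKN1A, chr6:36678464-36678763, plus strand: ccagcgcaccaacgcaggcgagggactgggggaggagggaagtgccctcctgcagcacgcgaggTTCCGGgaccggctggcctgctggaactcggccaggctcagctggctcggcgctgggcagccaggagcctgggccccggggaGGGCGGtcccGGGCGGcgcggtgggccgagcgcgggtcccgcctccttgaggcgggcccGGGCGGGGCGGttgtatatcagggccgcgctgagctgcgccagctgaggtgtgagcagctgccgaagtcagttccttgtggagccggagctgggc

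CDKN1B, chr12:12717118-12717417, plus strand: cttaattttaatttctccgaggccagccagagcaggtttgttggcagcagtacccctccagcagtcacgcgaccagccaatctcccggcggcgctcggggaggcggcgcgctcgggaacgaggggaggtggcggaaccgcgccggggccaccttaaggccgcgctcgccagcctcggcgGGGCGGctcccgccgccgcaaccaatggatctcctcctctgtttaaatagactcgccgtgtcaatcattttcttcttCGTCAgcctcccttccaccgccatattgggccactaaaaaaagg

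The CDKN1A sequence held 4 SP1 boxes and 1 ETS site. The CDKN2B sequence held 2 SP1 boxes and 1 CRE core, and the CDKN1B sequence held 1 of each. Of the CDKN2A entries, the one at 21974808 held 2 SP1 boxes and the one at 21995275 held none of the 5 motifs. No match shared a base with a match to another motif. Among the 35116 promoter sequences of the same table, 45% held the SP1 box, 24.6% the CRE core, 17.2% the ETS site, 7.71% the AP-1 site and 6.55% the E2F site. A match is a description of these letters, and binding was not measured.

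The arrays were checked before the results were read. Array medians lay between 5.12 and 5.40, and each array correlated with its fellow replicates at a mean r of 0.986 to 0.998. Upper quartiles lay between 7.48 and 8.03, and 3 arrays stood lowest: MDA231 4 h array B at 7.48, BT549 24 h array A at 7.50 and MDA231 4 h array C at 7.66. The next, SUM159PT 4 h array A at 7.70, lay close to the third, so the cut at 3 arrays was a choice. The results below that the 3 lowest arrays moved most are also given without them. DUSP4 signal fell by 2.42 in siDUSP4 cells of MDA231, by 1.84 in those of SUM159PT and by 2.24 in those of BT549. DUSP6, an ERK-induced feedback phosphatase, fell by 4.53 in MDA231, fell by 2.91 in SUM159PT and fell by 1.60 in BT549 after 4 h of selumetinib. DUSP4 itself fell at 4 h by 2.35 in MDA231, by 1.35 in SUM159PT and by 1.45 in the mean of the 3 lines. By limma's F test its 4 h effect differed between the lines (adjusted p = 0.00016). The same test was passed by DUSP6 at 4 h (adjusted p = 8.5e-07) and at 24 h (adjusted p = 8.9e-06). SPRY4, another check, passed it at 4 h (adjusted p = 9.2e-06) and at 24 h (adjusted p = 2.6e-06). At 24 h DUSP6 fell by 2.13 in the mean of the lines and by 0.96 in BT549, where DUSP4 fell by 0.72. From 4 h to 24 h DUSP4 in BT549 changed by -0.06. The mesenchymal genes VIM, CD44 and AXL averaged 10.26 or more in all 3 control groups, while SPARC averaged 5.14 in MDA231, below the median of all probes at 5.27. Of 5 epithelial and receptor genes that should be low in such lines, ESR1, PGR and CDH1 lay below that median in all 3 control groups. ERBB2 lay above it in every line, between 7.32 and 7.77, and EPCAM averaged 8.39 in MDA231, 5.52 in SUM159PT and 4.89 in BT549. The 9 measured blood and endothelial markers averaged 3.98 to 5.20 on every array. Of them, 6 lay below the median of all probes in MDA231 siCONTROL cells, 5 in those of SUM159PT and 9 in those of BT549. In these bulk samples, fewer cells carrying a transcript and less transcript per cell cannot be told apart.

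Control levels separated the lines most at CCND2, CDKN2A, CDKN2B and RB1. CCND2 was high in MDA231, CDKN2A and CDKN2B were high in BT549, and RB1 was low in BT549. With limma's test over all 17958 genes and adjusted p under 0.05, 6 of 9 members differed between MDA231 and SUM159PT (5 higher in MDA231, 1 lower), where 44.8% of all genes did (23.1% higher, 21.7% lower). Between MDA231 and BT549, 7 of 9 differed (5 higher in MDA231, 2 lower) against 48.1% of all genes (21.8% higher, 26.3% lower). Between SUM159PT and BT549, 7 of 9 (4 higher in SUM159PT, 3 lower) differed, against 50.2% (22.3% higher, 27.9% lower). CCND2 measured 10.26, 10.38 and 10.19 in MDA231, against 6.17, 6.10 and 6.22 in SUM159PT and 4.71, 5.15 and 5.15 in BT549. No array of one line reached the range of another, as was the case for 57.7% of all genes between MDA231 and SUM159PT, 56.6% between MDA231 and BT549 and 61.8% between SUM159PT and BT549, and BT549 lay below the median of all probes. The difference was 4.11 ± 0.14 (SE) between MDA231 and SUM159PT, a 17.3-fold difference (adjusted p = 1.1e-22).

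**Figure D1:**
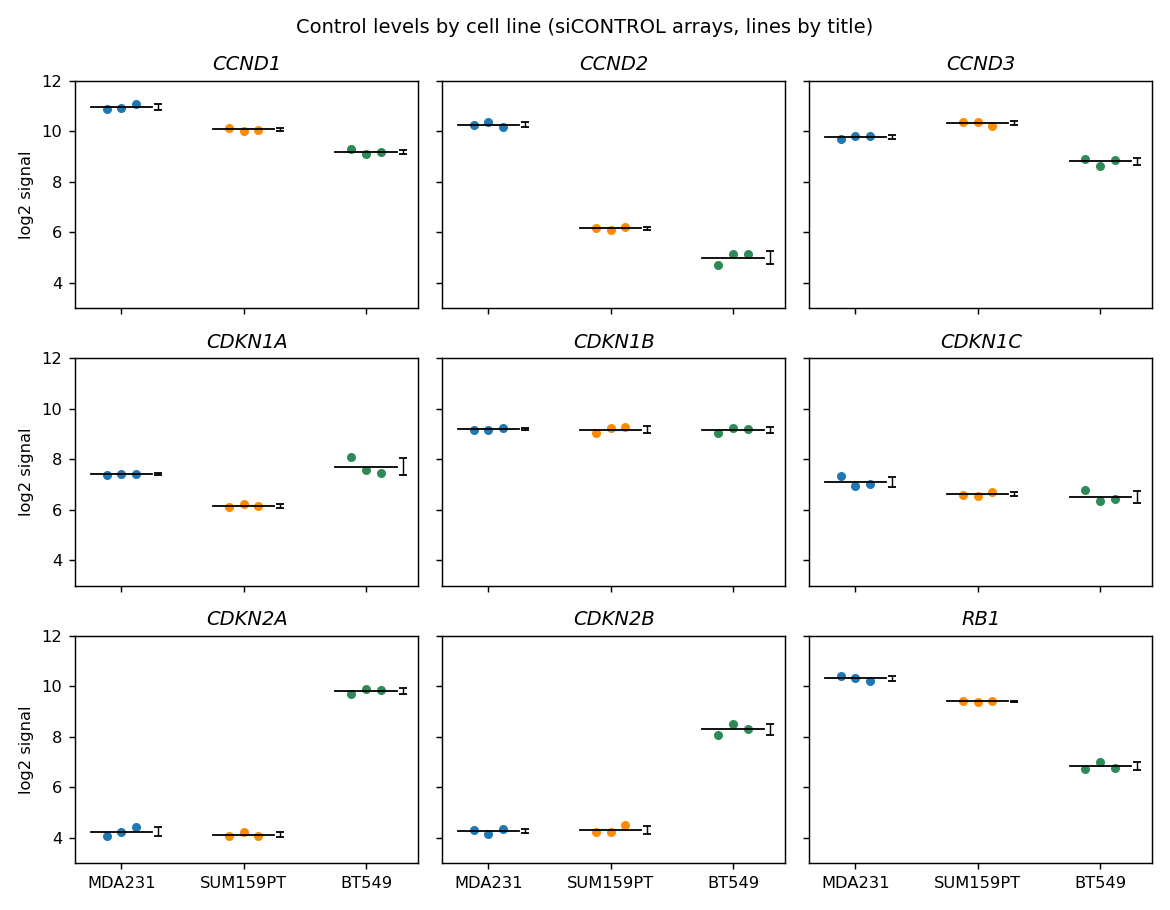
Log2 signal of the 9 measured genes on the 3 siCONTROL arrays of each line (points), with the mean (line) and SD (bar at the right), on the same axis in every panel. CCND2 stands highest in MDA231, CDKN2A and CDKN2B stand highest in BT549 with the other lines near 4, RB1 stands lowest in BT549, and CDKN1B lies near 9.2 in all 3 lines.

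CCND1, the gene of cyclin D1, averaged 10.98 ± 0.11 in MDA231, 10.08 ± 0.05 in SUM159PT and 9.20 ± 0.08 in BT549 (SD, n = 3 each). Each step in that order was called and was close to 0.9: MDA231 exceeded SUM159PT by 0.90 ± 0.12 (SE, adjusted p = 6.1e-08) and SUM159PT exceeded BT549 by 0.88 ± 0.12 (SE, adjusted p = 7.6e-08). CCND3, the gene of cyclin D3, had another order, with SUM159PT at 10.32 ± 0.08, MDA231 at 9.78 ± 0.09 and BT549 at 8.81 ± 0.14 (SD, n = 3 each). All 3 pairs of lines differed at CCND3. Another probe for CCND1 gave a different picture: it stayed between 4.67 and 5.43 on all 36 arrays and showed no called difference between lines or treatments, while the probe used had a mean of 9.74. Which probe reports the CCND1 transcript better was not tested, and every CCND1 result below comes from the probe with the higher mean.

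Among the CIP/KIP genes, CDKN1B was level across the lines. It measured 9.18, 9.16 and 9.24 in MDA231, 9.04, 9.24 and 9.27 in SUM159PT, and 9.04, 9.23 and 9.21 in BT549. The ranges overlapped in every pair, and the difference between SUM159PT and BT549 was 0.02 with a 95% interval of -0.21 to 0.26. CDKN1A averaged 7.42 ± 0.02 in MDA231 and 6.16 ± 0.07 in SUM159PT, with 7.72 ± 0.34 in BT549 (SD, n = 3 each). SUM159PT lay below both other lines, by 1.56 ± 0.20 against BT549 (SE, adjusted p = 2.7e-08). MDA231 and BT549 did not pass the test at CDKN1A (-0.30, 95% interval -0.70 to 0.10, adjusted p = 0.22), although their arrays did not overlap, as was the case for 56.6% of all genes. CDKN1C averaged 7.11 ± 0.20 in MDA231, 6.63 ± 0.08 in SUM159PT and 6.51 ± 0.23 in BT549 (SD, n = 3 each). MDA231 was higher than SUM159PT by 0.48 ± 0.20 (SE, adjusted p = 0.047), a call lost in 5 of 12 alternative settings.

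The INK4 genes CDKN2A and CDKN2B lie side by side on chromosome 9. CDKN2A measured 4.07, 4.22 and 4.41 in MDA231 and 4.07, 4.23 and 4.07 in SUM159PT, against 9.70, 9.90 and 9.86 in BT549. CDKN2B measured 4.30, 4.16 and 4.33 in MDA231 and 4.22, 4.22 and 4.50 in SUM159PT, against 8.06, 8.50 and 8.33 in BT549. For both genes MDA231 and SUM159PT overlapped and lay below the median of all probes, while BT549 stood apart above it. SUM159PT was lower than BT549 by 5.70 ± 0.16 at CDKN2A (SE, adjusted p = 7.6e-25) and by 3.99 ± 0.12 at CDKN2B (SE, adjusted p = 8.4e-24). Whether the low signals are above background cannot be told from the deposited values, so the fold differences of 51.8 and 15.9 on this scale are not true ratios of transcript. MTAP, the gene next to CDKN2A, was not analysed here.

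RB1 measured 10.40, 10.31 and 10.22 in MDA231 and 9.41, 9.39 and 9.40 in SUM159PT, against 6.71, 7.01 and 6.78 in BT549. The 3 lines did not overlap, as for 56.6% to 61.8% of all genes in single pairs of lines. MDA231 exceeded BT549 by 3.48 ± 0.09 (SE, adjusted p = 2.2e-25) and SUM159PT exceeded BT549 by 2.57 ± 0.09 (SE, adjusted p = 6.3e-22). As background, loss of RB1 is known in BT549 and deletion of CDKN2A in MDA231. These line comparisons follow the titles, and under the source names the values given for SUM159PT and BT549 would change places.

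With siDUSP4, CCND3 and CDKN1B were higher in the mean of the lines, and RB1 was higher in BT549. In the mean of the 3 lines, 4 of 9 members were called (3 higher, 1 lower), where 18.7% of all genes were (7.43% higher, 11.3% lower). The count was 3 of 9 in MDA231 (17.6% of all genes), 1 of 9 in BT549 (14.2%) and 0 of 9 in SUM159PT (2.83%). In SUM159PT, limma's unadjusted p was under 0.05 for 1 member, and the share of all genes under that threshold was not computed. The changes and their intervals are plotted by line and treatment below.

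**Figure D2:**
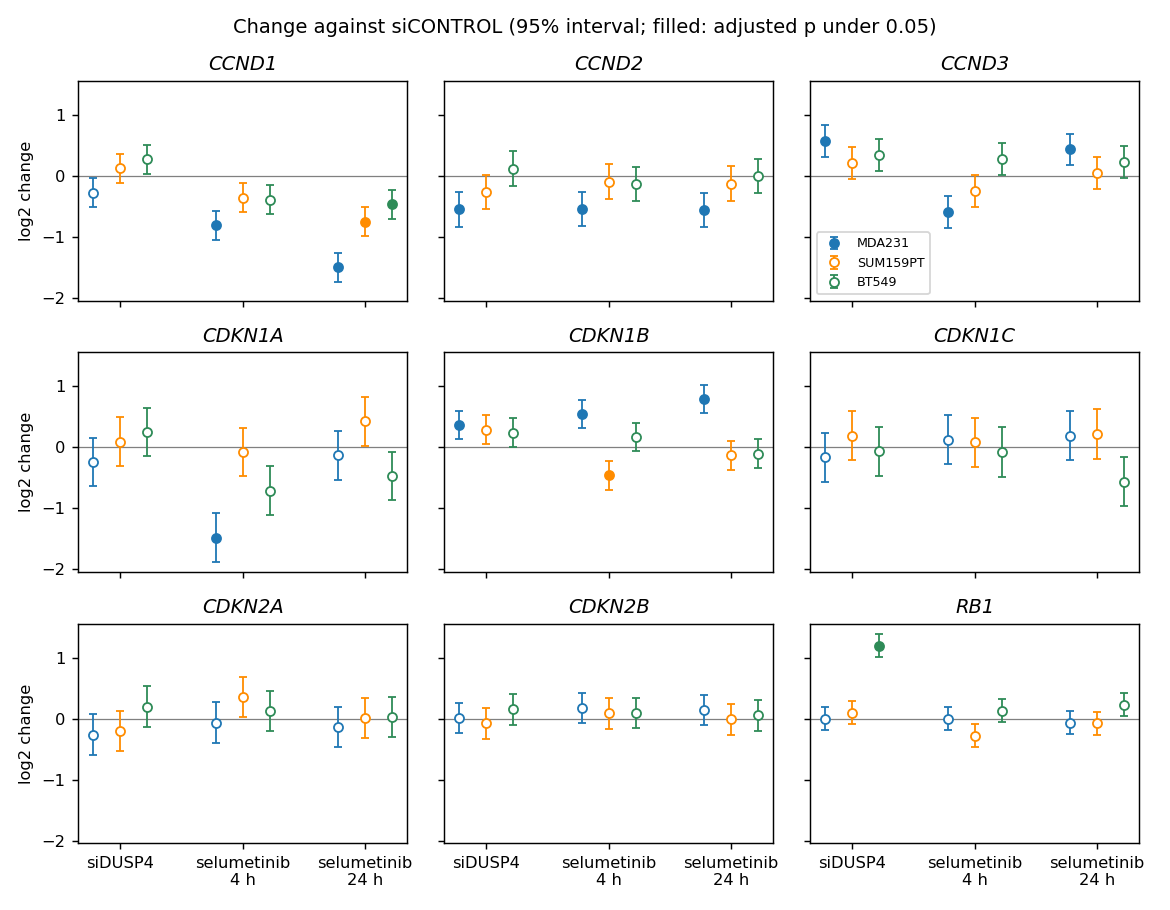
Log2 change against siCONTROL (vertical axis) for the 9 measured genes under siDUSP4, selumetinib for 4 h and selumetinib for 24 h, in MDA231, SUM159PT and BT549 (colours), with 95% intervals. Filled points passed limma's adjusted p of 0.05. CCND1 lies lowest at 24 h in MDA231 at -1.49, CDKN1A lies lowest at 4 h in MDA231 at -1.48, and RB1 stands out under siDUSP4 in BT549 at 1.20.

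RB1 showed the largest change of any member with siDUSP4. In BT549 it measured 8.00, 8.15 and 7.95 in siDUSP4 cells, against 6.71, 7.01 and 6.78 in siCONTROL cells. Every siDUSP4 array lay above every siCONTROL array, with a gap wider than the spread within either group. Groups did not overlap for 38.7% of all genes there. The change was 1.20 ± 0.09 (SE), or 2.30-fold, with an adjusted p of 4.8e-11, and it lay between 1.14 and 1.29 over 13 alternative settings, all called. RB1 in siDUSP4 cells of BT549 still lay below its control level in the other lines. Whether the RB1 probe reads intact RB1 transcript in BT549 was not tested. In MDA231 the change was 0.00 with a 95% interval of -0.19 to 0.19, and in SUM159PT it was 0.10 with an interval of -0.09 to 0.29. The test of a different siDUSP4 effect between lines gave an adjusted p of 4.7e-08 for RB1, with 15.5% of all genes called in that test. In the same arrays the other genes that separated BT549 from both lines were not called. CDKN2A averaged 10.02 in siDUSP4 and 9.82 in siCONTROL cells, and CDKN2B averaged 8.46 in siDUSP4 and 8.30 in siCONTROL cells. CCND1 changed by 0.27, CCND2 by 0.12 and CCND3 by 0.34 in BT549.

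CCND3 rose with siDUSP4 by 0.37 ± 0.07 in the mean of the lines (SE, adjusted p = 0.00036), a 1.30-fold change. In MDA231 it measured 10.27, 10.45 and 10.34 in siDUSP4 cells, against 9.69, 9.83 and 9.84 in siCONTROL cells, and the change of 0.57 ± 0.13 (SE) was called (adjusted p = 0.0015). The siDUSP4 and siCONTROL arrays did not overlap in any of the 3 lines, as was the case for 36.3% of all genes in MDA231, 32.3% in SUM159PT and 38.7% in BT549. The change was 0.21 in SUM159PT (adjusted p = 0.53) and 0.34 in BT549 (adjusted p = 0.074), and the test of a difference between lines did not pass (adjusted p = 0.35).

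CDKN1B, the gene of p27, rose by 0.30 ± 0.07 in the mean of the lines (SE, adjusted p = 0.0014). It measured 9.59, 9.54 and 9.53 in siDUSP4 cells of MDA231, against 9.18, 9.16 and 9.24 in siCONTROL cells. In SUM159PT it measured 9.54, 9.47 and 9.40 in siDUSP4 cells, against 9.04, 9.24 and 9.27 in siCONTROL cells, and in BT549 9.53, 9.37 and 9.29 in siDUSP4 cells, against 9.04, 9.23 and 9.21 in siCONTROL cells. The groups did not overlap in any line, as for 36.3% of all genes in MDA231, 32.3% in SUM159PT and 38.7% in BT549. The changes were 0.36, 0.29 and 0.24 in that order, and of the single lines MDA231 passed the test (adjusted p = 0.024), a call lost in 6 of 13 alternative settings. The line-difference test gave an adjusted p of 0.86.

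CCND2 fell by 0.55 ± 0.14 in siDUSP4 cells of MDA231 (SE, adjusted p = 0.0043), the line in which it was high. It measured 9.69, 9.77 and 9.72 there in siDUSP4 cells, against 10.26, 10.38 and 10.19 in siCONTROL cells, without overlap (36.3% of all genes). In the mean of the lines it fell by 0.23 ± 0.08 (SE, adjusted p = 0.038), a call lost in 13 of 23 alternative settings. CCND1 changed by -0.28 ± 0.12 in MDA231 (adjusted p = 0.11), 0.13 ± 0.12 in SUM159PT (adjusted p = 0.71) and 0.27 ± 0.12 in BT549 (adjusted p = 0.13), none of them called. The siDUSP4 effects on CCND1 and CCND2 differed between the lines, each with an adjusted p of 0.045, and leaving out 1 array at a time lost the CCND1 call in 14 of 18 fits and the CCND2 call in 16 of 18. CDKN1A, CDKN1C, CDKN2A and CDKN2B were not called with siDUSP4 in any line, with changes between -0.26 and 0.25.

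After 4 h of selumetinib, CCND1 and CDKN1A fell in the mean of the lines, and MDA231 held most of the called members. The count was 3 of 9 members in the mean of the lines, all lower (13.8% of all genes, with 12.7% lower and 1.12% higher), and 2 of 9 without the 3 low arrays, where CCND2 changed by -0.18 (adjusted p = 0.12). It was 5 of 9 in MDA231 (15.6%), 1 of 9 in SUM159PT (4.28%) and 0 of 9 in BT549 (0.652%), with shares by adjusted p. In BT549 limma's unadjusted p was under 0.05 for 3 members, and the share of all genes under that threshold was not computed. The median change of all genes in MDA231 at 4 h was -0.13, and the changes of members there should be read relative to it. Without arrays B and C, the MDA231 4 h group holds 1 array, which is then assumed to vary like the other groups.

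CDKN1A, the gene of p21, measured 6.68, 5.61 and 5.52 at 4 h in MDA231, against 7.39, 7.42 and 7.43 in siCONTROL cells. All 3 treated arrays lay below the controls (groups did not overlap for 14.8% of all genes), and arrays B and C, which have low upper quartiles, lay about 1 below array A. CDKN1A fell by 1.48 ± 0.20 (SE, adjusted p = 3.2e-06), to 35.9% of the control level, and by 0.74 without those arrays (adjusted p = 0.026). In BT549 it measured 7.13, 6.96 and 6.92 at 4 h, against 8.11, 7.58 and 7.47 in siCONTROL cells, and the change of -0.71 ± 0.20 (SE) was not called (adjusted p = 0.10) although the arrays did not overlap, as for 19.1% of all genes. In SUM159PT the change was -0.07 with a 95% interval of -0.47 to 0.32. The 4 h effect differed between the lines (adjusted p = 0.011, with 1.84% of all genes called in that test), and the adjusted p was 0.054 without the 3 low arrays.

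CCND1 measured 10.48, 9.92 and 10.13 at 4 h in MDA231, against 10.89, 10.95 and 11.11 in siCONTROL cells. It fell by 0.81 ± 0.12 (SE, adjusted p = 1.3e-05), and by 0.50 without arrays B and C (adjusted p = 0.0089). In SUM159PT it measured 9.71, 9.75 and 9.70 at 4 h, against 10.14, 10.04 and 10.07 in siCONTROL cells, and in BT549 8.91, 8.78 and 8.73 at 4 h, against 9.29, 9.12 and 9.20 in siCONTROL cells. The arrays did not overlap in any line, as for 14.8% of all genes in MDA231, 38.4% in SUM159PT and 19.1% in BT549. The changes of -0.36 in SUM159PT (adjusted p = 0.071) and -0.39 in BT549 (adjusted p = 0.15) were not called. In the mean of the lines CCND1 fell by 0.52 ± 0.07 (SE, adjusted p = 1.9e-06), and by 0.42 without the low arrays (adjusted p = 1.6e-06).

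CCND3 measured 9.75, 8.93 and 8.90 at 4 h in MDA231, against 9.69, 9.83 and 9.84 in siCONTROL cells, so that array A lay within the control range and arrays B and C below it. Its fall by 0.59 ± 0.13 (SE, adjusted p = 0.0025) rests on arrays B and C: without them the change was -0.04 (adjusted p = 0.98). CCND2 fell by 0.54 in MDA231 (adjusted p = 0.0088), with -0.31 left without those arrays (adjusted p = 0.58). CDKN1B moved the other way in MDA231, where it measured 9.90, 9.50 and 9.82 at 4 h, against 9.18, 9.16 and 9.24 in siCONTROL cells. It rose there by 0.55 ± 0.11 (SE, adjusted p = 0.0017), and by 0.71 without arrays B and C (adjusted p = 0.00098). In SUM159PT CDKN1B measured 8.71, 8.60 and 8.86 at 4 h, against 9.04, 9.24 and 9.27 in siCONTROL cells, and fell by 0.46 ± 0.11 (SE, adjusted p = 0.018). That call was lost when siCONTROL array B or C, or 4 h array A or B, was left out, with changes of -0.45 to -0.40 and adjusted p of 0.078 to 0.11. The arrays did not overlap in either line, as for 14.8% of all genes in MDA231 and 38.4% in SUM159PT. The 4 h effect on CDKN1B differed between the lines with an adjusted p of 0.00086.

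After 24 h of selumetinib, CCND1 was lower in all 3 lines and CDKN1B was higher in MDA231. In the mean of the lines, 4 of 9 members were called (2 higher, 2 lower), beside 26.5% of all genes (7.24% higher, 19.2% lower). The count was 4 of 9 in MDA231 (17.7%), 1 of 9 in SUM159PT (4.28%) and 1 of 9 in BT549 (15.1%), and the called member in SUM159PT and in BT549 was CCND1. The siCONTROL arrays are shared with the siDUSP4 and 4 h comparisons. The plot of single arrays shows the values by group.

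**Figure D3:**
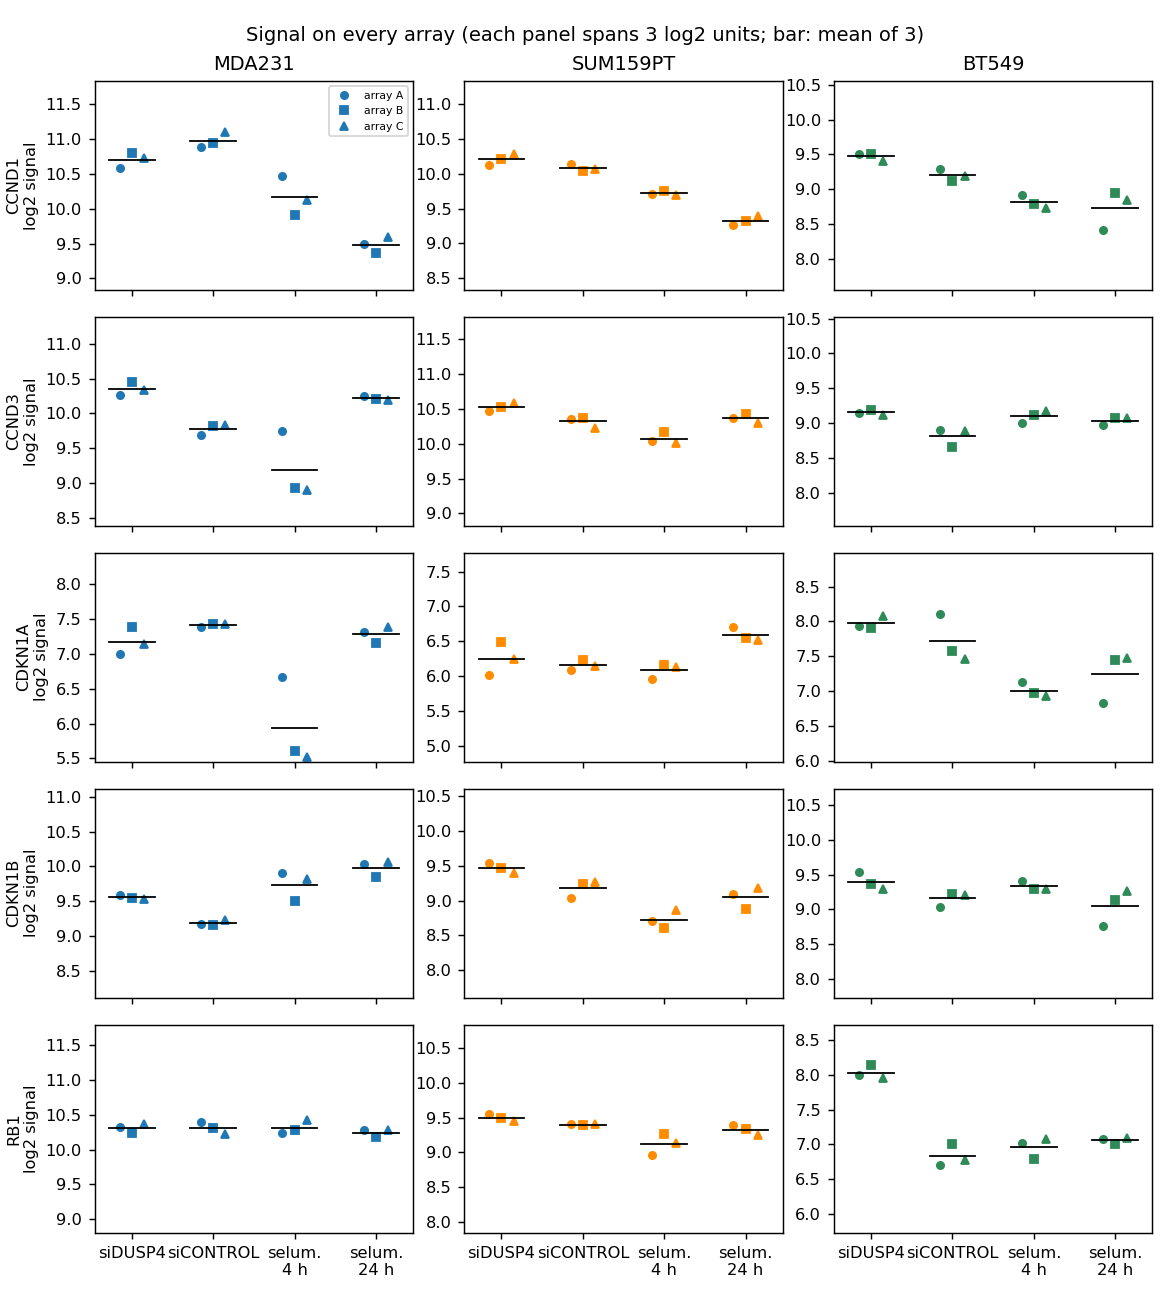
Log2 signal of CCND1, CCND3, CDKN1A, CDKN1B and RB1 on every array (points, with a shape for each letter) in the siDUSP4, siCONTROL, selumetinib 4 h and selumetinib 24 h groups of each line, with the mean of 3 arrays (bar). In MDA231 CCND1 is lowest at 24 h, CDKN1A is lowest at 4 h with arrays B and C near 5.5, and RB1 in BT549 is near 8 with siDUSP4 and near 7 in the other groups.

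CCND1 measured 9.49, 9.37 and 9.60 at 24 h in MDA231, against 10.89, 10.95 and 11.11 in siCONTROL cells. It measured 9.27, 9.32 and 9.39 at 24 h in SUM159PT, against 10.14, 10.04 and 10.07 in siCONTROL cells. It measured 8.41, 8.94 and 8.84 at 24 h in BT549, against 9.29, 9.12 and 9.20 in siCONTROL cells. No treated array reached the control range in any line, as was the case for 33.2% of all genes in MDA231, 32.9% in SUM159PT and 27.5% in BT549. CCND1 fell by 1.49 ± 0.12 in MDA231 (SE, adjusted p = 1.4e-11), to 35.5% of the control level, and by 0.75 ± 0.12 in SUM159PT (SE, adjusted p = 7.7e-05), to 59.3%. In BT549 it fell by 0.47 ± 0.12 (SE, adjusted p = 0.0087), to 72.3%. Array A of BT549 at 24 h, which has a low upper quartile, was the lowest of its group: without it the change was -0.31, with an adjusted p of 0.11, or 0.025 when the other low arrays were left out too. The 24 h effect on CCND1 differed between the lines (adjusted p = 0.00012, with 9.91% of all genes called in that test).

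CDKN1B measured 10.03, 9.85 and 10.07 at 24 h in MDA231, against 9.18, 9.16 and 9.24 in siCONTROL cells. Every treated array was higher, and groups did not overlap for 33.2% of all genes. CDKN1B rose by 0.79 ± 0.11 (SE, adjusted p = 3.6e-06), or 1.73-fold. The change was -0.13 in SUM159PT (95% interval -0.36 to 0.10) and -0.10 in BT549 (95% interval -0.34 to 0.13). The 24 h effect differed between the lines with an adjusted p of 0.00011. The mean over the lines was 0.19 (adjusted p = 0.036), a call lost in 11 of 24 alternative settings.

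CCND3 was higher at 24 h in MDA231, where it measured 10.26, 10.20 and 10.19, against 9.69, 9.83 and 9.84 in siCONTROL cells. It rose by 0.43 ± 0.13 (SE, adjusted p = 0.015), and without siCONTROL array A the change was 0.38 (adjusted p = 0.077). CCND2 fell there by 0.56 ± 0.14 (SE, adjusted p = 0.0033). CDKN1A averaged 7.29 ± 0.12 at 24 h in MDA231 and 7.42 ± 0.02 in siCONTROL cells (SD, n = 3 each), and the change of -0.13 had a 95% interval of -0.53 to 0.27. In SUM159PT the CDKN1A change at 24 h was 0.43 (adjusted p = 0.26) and in BT549 it was -0.47 (adjusted p = 0.096). CDKN1C in BT549 measured 5.16, 6.52 and 6.19 at 24 h, against 6.78, 6.33 and 6.43 in siCONTROL cells. Array A stood far below the rest, and the change of -0.56 (adjusted p = 0.051) was -0.16 without it (adjusted p = 0.57). CDKN2A, CDKN2B and RB1 were not called with selumetinib at either time in any line, with changes between -0.28 and 0.35.

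At 24 h, compared with 4 h, CCND1 was lower and CCND3 and CDKN1A were higher in MDA231. In that line 3 of 9 members were called, 2 higher and 1 lower, beside 24.9% of all genes (20.4% higher, 4.48% lower). In the mean of the lines 3 of 9 were called, 2 higher and 1 lower, beside 12.1% of all genes (7.65% higher, 4.47% lower). None were called in SUM159PT (3.01%) or BT549 (7.73%), with shares by adjusted p. There limma's unadjusted p was under 0.05 for 6 and 2 members, and the share of all genes under that threshold was not computed. In MDA231 CCND1 was lower at 24 h than at 4 h by 0.69 ± 0.12 (SE, adjusted p = 4.1e-05). CCND3 was higher at 24 h by 1.02 ± 0.13 (SE, adjusted p = 4.2e-07) and CDKN1A by 1.35 ± 0.20 (SE, adjusted p = 4.5e-06). The median change of all genes was 0.12 in this comparison, and without the low arrays the values were -0.99 for CCND1, 0.47 for CCND3 and 0.61 for CDKN1A, all called. In SUM159PT the change between times was 0.50 for CDKN1A (adjusted p = 0.19) and -0.39 for CCND1 (adjusted p = 0.058).

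The rest of the pathway was followed in a list of 54 genes, of which 50 were measured here. With siDUSP4, 11 were higher and 3 lower averaged over the lines (7.43% and 11.3% of all genes), with a median change of 0.04 beside -0.01 over all genes. By line, 12 were higher and 6 lower in MDA231 (7.86% and 9.77% of all genes), 2 higher and 2 lower in SUM159PT (1.05% and 1.78%), and 16 higher and 1 lower in BT549 (4.97% and 9.22%). At 4 h of selumetinib none were higher and 16 lower averaged over the lines (1.12% and 12.7% of all genes). The list had 15 lower in MDA231, where 1.11% of all genes were higher and 14.5% lower, 7 lower in SUM159PT (0.473% and 3.81%) and none in BT549 (0.161% and 0.49%). At 24 h, 3 were higher and 29 lower (7.24% and 19.2% of all genes), with a median change of -0.22 beside -0.01 over all genes. By line the 24 h counts were 2 higher and 21 lower in MDA231 (7.36% and 10.3% of all genes), 2 higher and 15 lower in SUM159PT (1.34% and 2.94%), and none higher and 9 lower in BT549 (2.66% and 12.4%).

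The S-phase cyclins and their activators, 4 genes, were all higher with siDUSP4 in the mean of the lines, as were 7.43% of all genes. By line, 3 were higher in MDA231 (7.86% of all genes), 1 in SUM159PT (1.05%) and 4 in BT549 (4.97%). CCNE1, the gene of cyclin E1 that activates CDK2, rose by 1.06 ± 0.07 in the mean of the lines (SE, adjusted p = 3.95e-13). Its rise was 2.16 in MDA231 and 0.80 in BT549, and the change in SUM159PT was 0.23 (adjusted p = 0.42). CDC25A, a phosphatase that activates CDK2, rose with siDUSP4 by 0.83 ± 0.07 (SE) and was called higher in each line. It fell at 24 h of selumetinib by 0.76 ± 0.07 (SE, adjusted p = 4.8e-10) and was called lower in each line, although in BT549 the change of -0.47 was -0.30 without the low arrays (adjusted p = 0.050).

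CDK6, a kinase partner of the D cyclins, rose with siDUSP4 by 0.52 ± 0.06 (SE, adjusted p = 1.4e-07) and was called in each line. It fell by 0.38 ± 0.06 (SE) at 4 h and by 0.37 ± 0.06 (SE) at 24 h in the mean of the lines. At 4 h it fell by 0.53 in MDA231 (adjusted p = 0.00095), where the change was -0.35 without arrays B and C (adjusted p = 0.17), and was not called in the other lines. CDK4, the other partner, was not called with siDUSP4 (-0.08) or at 4 h (-0.16), and fell by 0.16 at 24 h (adjusted p = 0.048). CDKN2D, the remaining INK4 gene measured, changed by 0.03 with siDUSP4, -0.14 at 4 h and -0.05 at 24 h, none called. RBL1, the gene of the RB relative p107, fell with siDUSP4 by 0.69 ± 0.07 (SE, adjusted p = 2.6e-09). Its fall was 1.18 in MDA231 and 0.60 in SUM159PT, and the change in BT549 was -0.28 (adjusted p = 0.10).

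Of 9 measured E2F targets, 6 were higher and none lower with siDUSP4 in BT549 (4.97% and 9.22% of all genes). In MDA231, 1 was higher and 3 lower (7.86% and 9.77%), and none were called in SUM159PT (1.05% and 1.78%). A difference between the lines was not tested for the list. At 24 h of selumetinib 7 were lower and none higher averaged over the lines (19.2% and 7.24% of all genes). Among them MCM6, a replication helicase subunit, fell by 0.41 ± 0.06 (SE, adjusted p = 2.3e-06). In BT549 at 24 h 1 target was called, and 0 were without the 3 low arrays. DTL, a ubiquitin ligase subunit listed with the genes of degradation and assembly, fell at 24 h by 0.59 ± 0.06 in the mean of the lines (SE, adjusted p = 4.95e-09).

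MYC, a transcription factor downstream of ERK, fell at 4 h by 0.59 ± 0.06 in the mean of the lines (SE, adjusted p = 9.2e-09). It fell by 1.05 in MDA231 and by 0.50 in SUM159PT, and the change in BT549 was -0.21 (adjusted p = 0.60). The effect differed between the lines (adjusted p = 0.0013), and the change in MDA231 was -0.79 without arrays B and C (adjusted p = 1.6e-06). MXD1, which binds MAX in competition with MYC, fell in the mean of the lines by 0.56 ± 0.08 at 4 h (SE, adjusted p = 7.7e-06) and by 0.55 ± 0.08 at 24 h (SE, adjusted p = 3.3e-06). In SUM159PT it was not called, with -0.13 at 4 h (adjusted p = 0.60) and 0.03 at 24 h (adjusted p = 0.96), and the effect differed between the lines at 4 h (adjusted p = 0.019) and at 24 h (adjusted p = 0.0017). The MXD1 change at 4 h in MDA231 was -1.05, and -0.46 without arrays B and C (adjusted p = 0.012), where the difference between the lines was no longer called (adjusted p = 0.067).

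GDF15, a secreted TGF-beta family member, fell by 1.14 ± 0.12 at 4 h in the mean of the lines (SE, adjusted p = 2.9e-08), and by 0.85 without the low arrays (adjusted p = 1.9e-07). Its change was -1.30 in MDA231, or -0.45 and not called without arrays B and C (adjusted p = 0.49). In SUM159PT it fell by 1.59, and in BT549 the change was -0.51 (adjusted p = 0.45).

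**Figure D4:**
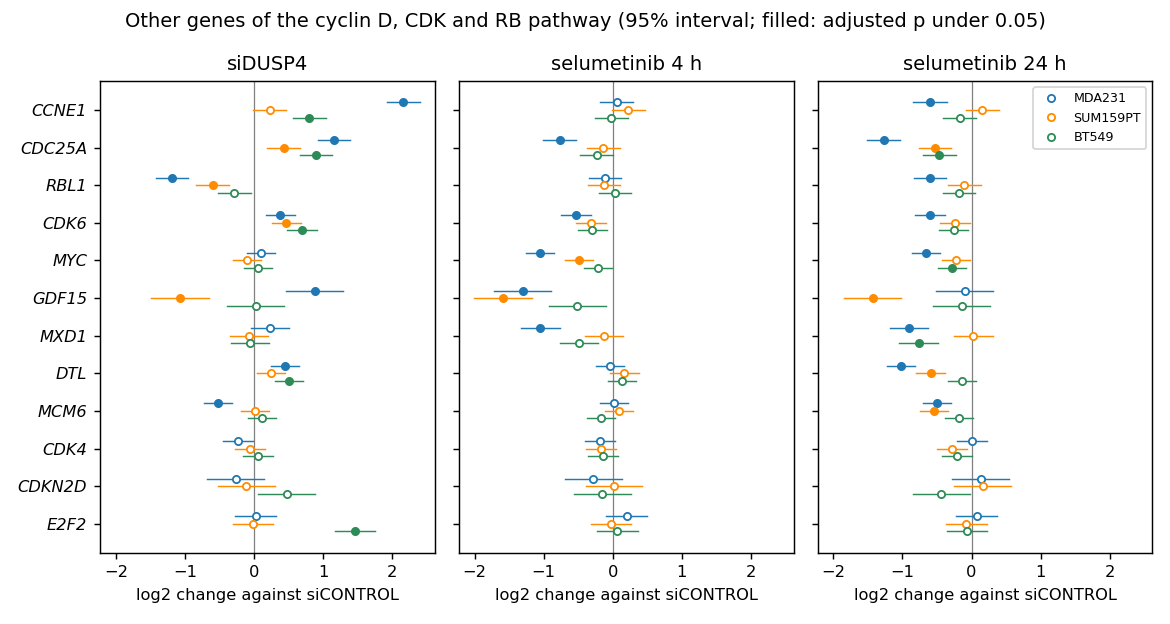
Log2 change against siCONTROL (horizontal axis) of 12 other pathway genes in MDA231, SUM159PT and BT549 (colours) for siDUSP4, selumetinib 4 h and selumetinib 24 h, with 95% intervals and filled points for adjusted p under 0.05. CCNE1 stands out with siDUSP4 in MDA231 at 2.16 and E2F2 with siDUSP4 in BT549 at 1.46, while most points at 24 h lie left of 0.

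The pathway counts were recomputed with other scalings and without the 3 low arrays, choices made after the values were seen. The shares of all genes called under these settings are not given here. Whether the counts below follow those shares thus cannot be told. At 24 h in the mean of the lines, 25 genes were lower with quantile normalization repeated, 34 with array medians aligned and 31 without the low arrays. At 4 h in MDA231, 15 genes were lower and none higher, against 3 lower without arrays B and C. At 24 h in BT549, 9 were lower and none higher, against 2 lower without array A and the other low arrays, and 3 with quantile normalization repeated.

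Genes with the most similar pattern were listed for the members called in the mean of the lines, by Pearson r over the 36 arrays after each line's mean was subtracted. CCND1 was closest to NAV3 (r = 0.94), PDCD1LG2 (r = 0.92) and DDX21 (r = 0.92). CCND3 was closest to MKNK2 (r = 0.92), GLMP (r = 0.91) and SPNS1 (r = 0.89), and CDKN1A to DUSP7 (r = 0.91), CTNS (r = 0.88) and TNPO2 (r = 0.84). CDKN1B was closest to LMBRD1 (r = 0.79), RCOR3 (r = 0.75) and RRAGB (r = 0.75), and CCND2 to B4GALT6 (r = 0.72), IL11 (r = 0.70) and SHC4 (r = 0.67). RB1 was closest to SNAPC1 (r = 0.83), E2F2 (r = 0.82) and TMEM245 (r = 0.81). E2F2, the gene of an E2F factor that RB binds, rose by 1.46 ± 0.14 with siDUSP4 in BT549 (SE, adjusted p = 5.4e-09). In the other lines its control mean was 4.58 in MDA231 and 4.59 in SUM159PT, below the median of all probes, and whether these signals are above background cannot be told. The arrays share normalization and treatment groups, and these values describe them only.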

How the data were processed

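RNA of 36 samples was measured on single-colour Affymetrix arrays, 3 arrays in each of 12 groups. The deposited values are log2 signals per probe, which per the submitters' processing notes the authors summarised by RMA (Affymetrix Expression Console 1.1). Other options: not given in the sources used here. They were used as deposited. Of 33297 probes, 19181 had 1 gene symbol, 2055 several and the rest none in the platform table, and the probe of highest mean stood for a gene. No low-signal filter was used. All 12 groups were fitted together in limma 3.58.1 (R 4.3.3), with contrasts within lines, their mean and F tests of differences between lines, and Benjamini-Hochberg adjustment over 17958 genes, called under 0.05; the script was tested on simulated data. Array number limits the precision. Named genes were the members, the DUSP4, DUSP6 and SPRY4 checks, CDKN2D, CDK4, CDK6, RBL1, and of the pathway list the 4 called genes of smallest p per treatment in the mean of the lines. E2F2, also plotted, was outside this rule and is among the 3 genes most similar to RB1 in these data. The members and lists were chosen with earlier results of these data known. Replicate letters paired no whole line: same-letter deviations correlated over 0.1 in 4, 7 and 1 of 18 pairs in MDA231, SUM159PT and BT549. All 3 letters did so for 4 h and siCONTROL in SUM159PT (r = 0.149, 0.105 and 0.271), where the block changed no member's call. Figures were drawn with matplotlib. Alternatives were other scalings, filters, weights, fits, the other CCND1 probe, a replicate block, and each array left out.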

Additional observations from a re-analysis of the deposited data

Results flagged for a closer look

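The effect of a treatment differed between the lines by limma's F test for 6 members, in 8 tests with an adjusted p under 0.05. With siDUSP4 these were RB1 (adjusted p = 4.7e-08), higher in BT549, and CCND1 and CCND2 (adjusted p = 0.045 for each), lower in MDA231 than in BT549 relative to their controls. Leaving out 1 array lost the CCND1 call in 14 of 18 fits and the CCND2 call in 16. At 4 h of selumetinib the members were CDKN1B (adjusted p = 0.00086), higher in MDA231 and lower in SUM159PT, CDKN1A (adjusted p = 0.011), and CCND3 (adjusted p = 0.016). CDKN1A fell most in MDA231. CCND3 averaged 9.19 at 4 h against 9.78 in siCONTROL cells in MDA231, 10.07 against 10.32 in SUM159PT and 9.09 against 8.81 in BT549. Leaving out 1 array lost the CDKN1A call in 1 of 18 fits and the CCND3 call in 2. At 24 h the members were CDKN1B (adjusted p = 0.00011) and CCND1 (adjusted p = 0.00012), each with its largest change in MDA231. Groups of 3 arrays are too small for a search for single outlying arrays.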

How the results depend on the processing

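Every called change of a member kept its sign in the alternatives run except 4 CCND1 results read from its other probe: 0.15 at 4 h in MDA231, 0.061 at 4 h in the mean of the lines, 0.056 at 24 h in MDA231 and -0.021 between MDA231 and SUM159PT. With that probe, 0 members were called at 24 h in SUM159PT, 0 in BT549 and 1 in the 24 h test of differences between lines. Numbers below are members called of 9. The shares of all genes called under each setting are not given here, so a changed count cannot be told from a change over all genes. With a replicate block, 2 were called at 24 h in BT549 and 1 in the siDUSP4 test between lines; the siDUSP4 change of CCND2 in the mean of the lines kept its value of -0.23 with an adjusted p of 0.059. With quantile normalization repeated, siDUSP4 gave 1 in SUM159PT and 4 in BT549, 4 h gave 2 in SUM159PT and 2 in BT549, 24 h gave 3 in BT549, and 24 h against 4 h gave 2 in SUM159PT. With array medians aligned, 4 h gave 3 in SUM159PT and 24 h gave 2 in BT549. With genes above the median probe level, siDUSP4 gave 2 in BT549, 4 h gave 2 in SUM159PT, 24 h gave 2 in BT549 and 24 h against 4 h gave 1 in SUM159PT. With array weights, whose estimation stopped before it converged, siDUSP4 gave 3 in SUM159PT, 4 in BT549 and 5 between lines; 4 h gave 3 in MDA231, 4 in SUM159PT and 3 in BT549; 24 h gave 2 in SUM159PT, 2 in BT549 and 5 between lines; 24 h against 4 h gave 4 in SUM159PT and 1 in BT549. Without the 3 arrays of lowest upper quartile, 4 h gave 3 in MDA231, 24 h gave 2 in BT549 and the 24 h test between lines gave 4. With the 12 arrays of a line alone, siDUSP4 gave 1 in MDA231 and 2 in BT549, 4 h gave 4 in SUM159PT, 24 h gave 2 in SUM159PT and 24 h against 4 h gave 3 in SUM159PT. With the 2 groups alone, siDUSP4 gave 1 in SUM159PT and 3 in BT549, 4 h gave 2 in MDA231 and 3 in SUM159PT, 24 h gave 2 in SUM159PT and 0 in BT549, and 24 h against 4 h gave 2 in SUM159PT. Leaving out 1 array at a time, siDUSP4 gave 2 to 3 in MDA231, 0 in SUM159PT, 1 in BT549, 3 to 4 in the mean and 1 to 2 between lines. The 4 h counts were 3 to 5 in MDA231, 0 to 1 in SUM159PT, 0 in BT549, 2 to 4 in the mean and 1 to 5 between lines. The 24 h counts were 3 to 4 in MDA231, 1 in SUM159PT, 0 to 2 in BT549, 2 to 4 in the mean and 2 to 4 between lines. For 24 h against 4 h they were 3 to 4 in MDA231, 0 in SUM159PT, 0 to 1 in BT549 and 3 in the mean. Control differences gave 5 to 6 for MDA231 against SUM159PT, 6 to 7 for MDA231 against BT549 and 7 for SUM159PT against BT549. The causes were not tested.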
